A study of Mus musculus with 48 samples.

Results

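The comparison described here is the effect of a pancreatic tumor on the muscle transcriptome by night set against the same effect by day. All 48 of the 48 RNA-seq libraries entered it. The tumor effect (KPC minus control) was averaged over the 3 circadian times of subjective night, CT38, CT18 and CT22 (20:00, 00:00 and 04:00 on the clock), and from it was subtracted the average over the 3 times of subjective day, CT26, CT30 and CT34 (08:00, 12:00 and 16:00). A positive value therefore marks a gene whose change with the tumor was more positive by night. It was computed for both genotypes pooled and then for each alone. The libraries were made from the tibialis anterior, a hindlimb muscle composed mainly of fast fibers, of male mice aged 39 to 55 weeks that had been entrained with lights on in the early morning and then held in constant darkness for 18 h before the first collection. KPC mice had received murine KPC pancreatic cancer cells in the pancreas, and control mice had undergone the same injection with PBS alone. FoxP1SkmKO mice carried homozygous floxed Foxp1 alleles and ACTA1-Cre, which is active in skeletal muscle fibers and not in the other cells of the muscle. The sources differ on the WT mice, which are C57BL/6J in the labels and in the study's methods but floxed at Foxp1 without Cre in the design text, and this was not resolved. Each genotype, condition and circadian time held 2 mice, so that each condition had 12 libraries by night and 12 by day. Replicates are separate mice, and each p-value rests on the spread between the 2 mice of a group. How far the tumor effect varied among the 3 times of a period does not enter the p-value. A call therefore concerns the averages over the times sampled and not night and day in general.

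Cells keep time with a transcriptional loop in which CLOCK and BMAL1 (Arntl in these files) drive the Per and Cry repressors, and the REV-ERBs (Nr1d1 and Nr1d2) repress Bmal1 in turn. In muscle this loop imposes daily rhythms on genes of fuel use, protein turnover and contraction. Tumors such as KPC bring on cachexia, a loss of muscle in which inflammatory cytokines and glucocorticoids, hormones that have a daily rhythm of their own, act on the fibers. Mice are active and feed mainly by night.

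Foxp1, the targeted gene, had low levels that overlapped between the genotypes. FPKM ran from 0.43 to 0.971 over the WT control libraries by day and from 0.482 to 0.641 in FoxP1SkmKO control libraries by day, with medians of 0.615 and 0.583. The medians were 0.609 and 0.604 in control mice by night and 0.596 and 0.570 in KPC mice by day. They lay farthest apart in KPC mice by night, at 0.714 in WT (0.454 to 0.757) and 0.503 in FoxP1SkmKO mice (0.468 to 0.640). The count over the whole gene, in RNA that also comes from cells without Cre, therefore did not separate the genotypes, and genotype was taken from the labels. The night minus day tumor effect on Foxp1 was 0.04 ± 0.10 (log2 ± SE). Library depth, as counts assigned to genes, was between 14480446 and 20787135, and the median was 17340669 in KPC mice by night and 16470205 in KPC mice by day. The 10 markers of the skeletal muscle fiber summed to 46000 to 62400 FPKM in all libraries. In bulk muscle, fewer cells of a type and less RNA per cell cannot be told apart.

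To determine whether the transcriptional response to the tumor differed between night and day, 15637 genes were tested. Only 10 genes (0.0640% of those tested) passed the threshold for the night minus day difference with both genotypes pooled (edgeR's quasi-likelihood test, Benjamini-Hochberg adjusted p under 0.05). Of these, 4 genes (0.0256%) were more positive by night and 6 (0.0384%) were more positive by day. The 4 were Cebpd, S1pr1, Nr1h3 and Rpl10a, and the 6 were Myh7, Lypd6, Atp2a2, Zfp655, Fhip1a and a gene model upstream of Aldoa. All 10 had the same sign in WT and in FoxP1SkmKO mice. They were picked on the mean of the values of both genotypes, so this describes the calls and adds no support to them. Most stood close to the threshold, with adjusted p between 0.0456 and 0.0462 for 8 of them, and Mthfd2, the next gene, had 0.0559. When each of the 48 libraries was left out in turn, the number of genes called ran from 1 to 37. It fell to fewer than 7 genes for 36 of the libraries, and in those refits a group was left with 1 mouse whose spread was taken from the other groups. Only the gene model upstream of Aldoa was called in all 48 of these refits. No gene was called when CT18 or when CT38 was left out of the averages (edgeR), although 1532 and 1203 genes then had an unadjusted p under 0.05, and 2 were called without CT26.

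**Figure D1:**
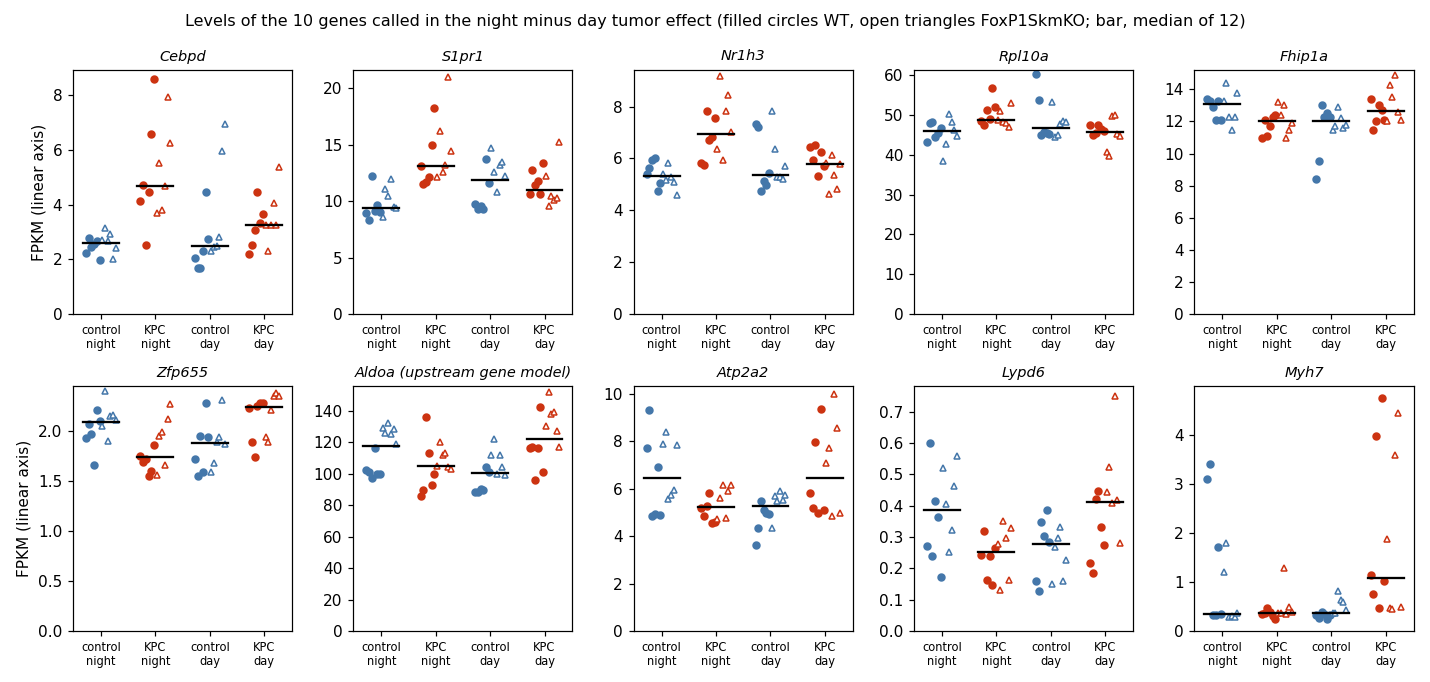
FPKM (linear axis) of the 10 genes called in the pooled night minus day tumor effect, in each of the 48 libraries, by condition and period, with filled circles for WT, open triangles for FoxP1SkmKO and a bar at the median of 12 libraries. Cebpd, S1pr1 and Nr1h3 were higher in KPC than in control mice by night and overlapped by day, whereas the genes of the lower row were higher in KPC mice by day.

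Among the genes weighted toward the night, the largest log2 difference was that of Cebpd (ENSMUSG00000071637, mm39 chromosome 16, 15705150 to 15708895, plus strand), which encodes C/EBP delta, a transcription factor induced by cytokines and glucocorticoids. By night, Cebpd had 1.96 FPKM at the lowest, 2.61 at the median and 3.15 at the highest in control mice, and 2.52, 4.69 and 8.57 in KPC mice. By day the same values were 1.67, 2.48 and 6.93 in control mice and 2.20, 3.27 and 5.38 in KPC mice. By night, 11 of the 12 KPC libraries lay above every control library, and by day none did. The tumor raised Cebpd 1.98-fold by night (log2 0.98 ± 0.10, adjusted p = 1.11e-06) and by 0.22 ± 0.11 on the log2 scale by day (adjusted p = 0.272). The difference was 0.76 ± 0.15 (95% interval 0.46 to 1.07, adjusted p = 0.0456). The KPC minus control values were 1.68 ± 0.18 at CT38, 0.74 ± 0.18 at CT18 and 0.53 ± 0.18 at CT22, and by day 0.27 ± 0.19 at CT26, 0.70 ± 0.19 at CT30 and -0.30 ± 0.18 at CT34. The largest value was thus at CT38, which was early night by the clock but the last time collected. The 2 control libraries that lay above all KPC libraries by day were the FoxP1SkmKO mice at CT34, with 5.94 and 6.93 FPKM. Without CT38 the difference in Cebpd was 0.41 ± 0.17 (adjusted p = 0.562).

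S1pr1 (ENSMUSG00000045092, chromosome 3, 115504082 to 115508721, minus strand) encodes a receptor for sphingosine-1-phosphate that is abundant in endothelial cells. By night it ran from 8.30 through a median of 9.44 to 12.2 FPKM in control mice and from 11.5 through 13.1 to 21 in KPC mice. By day it ran from 9.27 through 11.9 to 14.7 in control mice and from 9.54 through 11 to 15.2 in KPC mice. By night, 10 of the 12 control libraries lay below every KPC library, and by day the groups overlapped almost fully. The tumor effect on S1pr1 was 0.52 ± 0.07 by night (log2, adjusted p = 0.000102) and -0.01 ± 0.07 by day (adjusted p = 0.984), a difference of 0.52 ± 0.10 (95% interval 0.32 to 0.73, adjusted p = 0.0456). As with Cebpd, the night value was largest at CT38 (0.87 ± 0.13), lower at CT18 (0.52 ± 0.13) and lowest at CT22 (0.17 ± 0.12). CT18 and CT22 were collected first and CT38 last, so hour of the night and order of collection cannot be told apart. The 9 endothelial markers summed to 83.9 to 103 FPKM in KPC mice by night and 64.0 to 103 by day, against 78.9 to 105 and 73.9 to 112 in control mice, and none was at 0 in all libraries. Of these 9 markers, 8 had a positive night minus day tumor effect, 4 had an unadjusted p under 0.05 (11% of all genes did) and none was called. In FoxP1SkmKO mice, where S1pr1 was called as well, all 9 were positive, with a median of 0.31 and 7 at an unadjusted p under 0.05 (11.9% of all genes), and none was called. In WT mice their median was -0.01. Their part in the S1pr1 result was not tested.

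Nr1h3 (ENSMUSG00000002108, chromosome 2, 91014406 to 91033179, minus strand) encodes LXR alpha, a nuclear receptor that senses oxysterols and drives genes of lipid synthesis and cholesterol export. Its FPKM by night ran from 4.61 through 5.33 to 6.02 in control mice and from 5.75 through 6.93 to 9.19 in KPC mice. By day the values were 4.74, 5.37 and 7.83 in control mice and 4.62, 5.81 and 6.51 in KPC mice. By night, 9 of the 12 KPC libraries lay above every control library, and by day none did. The tumor effect on Nr1h3 was 0.41 ± 0.06 by night (adjusted p = 0.000227) and -0.02 ± 0.06 by day (adjusted p = 0.913), with a difference of 0.43 ± 0.09 (adjusted p = 0.0456). The day average joined values of opposite direction. At CT26 the mean was 7.19 FPKM in control and 5.71 in KPC mice, and at CT34 it was 5.33 and 5.64. At CT30 every KPC library (5.32 to 6.51 FPKM) lay above every control library (4.74 to 5.29). Rpl10a (ENSMUSG00000037805, chromosome 17, 28547445 to 28550007, plus strand), which encodes a protein of the large ribosomal subunit, had a far smaller difference of 0.22 ± 0.05 (adjusted p = 0.0462). Its median was 45.9 FPKM in control mice and 48.8 in KPC mice by night, and 46.6 and 45.7 by day, with ranges that overlapped in both periods.

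Of the genes weighted toward the day, Myh7 (ENSMUSG00000053093, chromosome 14, 55208141 to 55232083, minus strand), the myosin heavy chain of slow fibers, had the largest difference, -2.98 ± 0.54 on the log2 scale (95% interval -4.07 to -1.89, adjusted p = 0.0281). By day it ran from 0.246 through a median of 0.371 to 0.807 FPKM in control mice and from 0.459 through 1.09 to 4.76 in KPC mice. By night it ran from 0.288 through 0.358 to 3.40 in control mice and from 0.237 through 0.369 to 1.29 in KPC mice. The medians by night were thus alike, and the night part of the contrast came from a few control libraries. Myh7 exceeded 1 FPKM in 13 of the 48 libraries: in 7 of the 12 KPC libraries by day, in 5 of the 12 control libraries by night, in 1 KPC library by night and in no control library by day. All 4 control mice at CT18 were among the 13, with 3.09 and 3.40 FPKM in WT and 1.2 and 1.8 in FoxP1SkmKO mice, whereas at CT22 no control library was. In several groups the 2 mice stood far apart, as in FoxP1SkmKO KPC mice at CT34 with 4.45 and 0.499 FPKM. The tumor effect was 2.17 ± 0.36 by day (4.49-fold, adjusted p = 0.00270) and -0.81 ± 0.39 by night (adjusted p = 0.353), with -2.59 ± 0.62 at CT18 and 0.91 ± 0.68 at CT22.

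**Figure D2:**
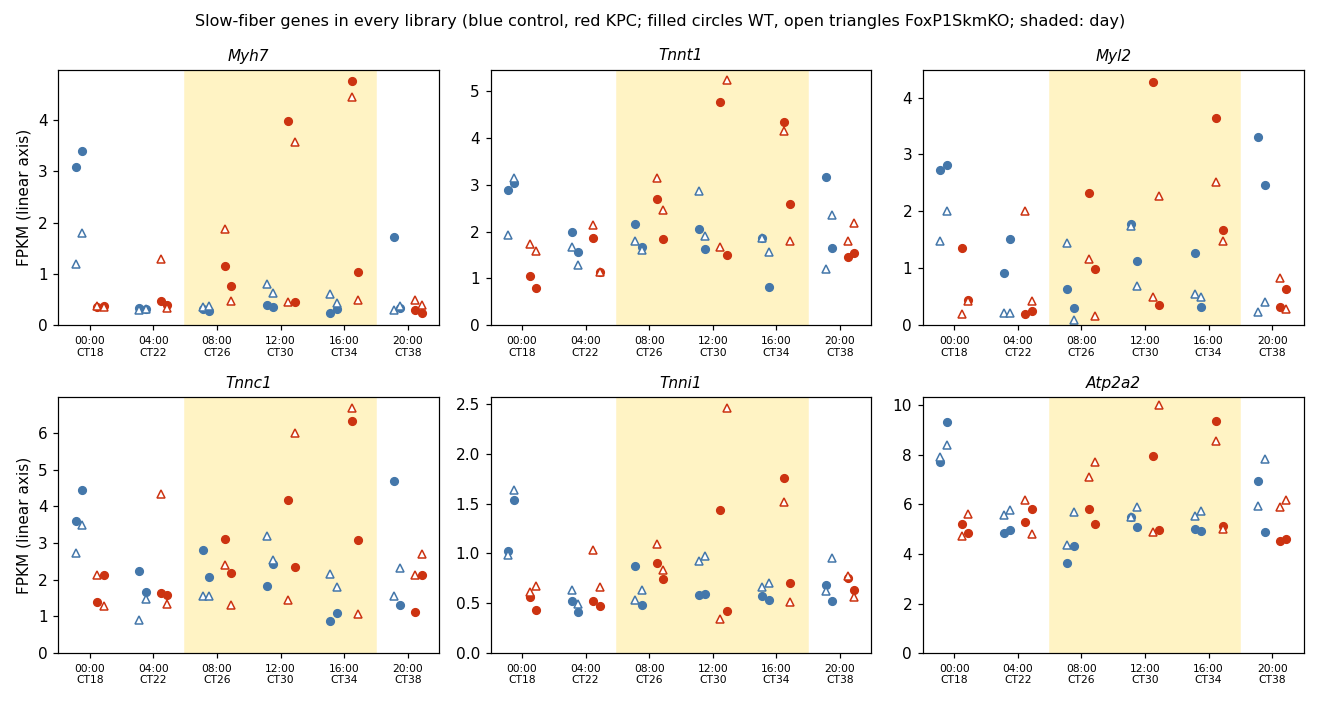
FPKM (linear axis) of 6 slow-fiber genes in each of the 48 libraries by circadian time, with control mice in blue, KPC mice in red, filled circles for WT, open triangles for FoxP1SkmKO and the 3 daytime points shaded. High values stood mainly in control mice at CT18 and in some KPC mice at CT26, CT30 and CT34. Of the 13 libraries over 1 FPKM in Myh7, 1 was a control mouse at CT38 and 1 a KPC mouse at CT22. Of the same 13, 10 or 11 were among the 13 highest for each of the other genes.

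A second slow-fiber gene was called, and the values of the others had the same sign. Atp2a2 (ENSMUSG00000029467, chromosome 5, 122591576 to 122640288, minus strand) encodes SERCA2, the calcium pump of slow fibers and heart. It ran by night from 4.84 through 6.44 to 9.33 FPKM in control mice and from 4.54 through 5.25 to 6.18 in KPC mice, and by day from 3.64 through 5.30 to 5.89 in control mice and from 4.87 through 6.46 to 10 in KPC mice. The order of the groups was therefore opposite in the 2 periods, with overlap in each. The night minus day difference in Atp2a2 was -0.73 ± 0.15 (adjusted p = 0.0456), made up of 0.42 ± 0.10 by day (adjusted p = 0.0218) and -0.31 ± 0.10 by night (adjusted p = 0.128). All 15 genes of a slow-fiber list had a negative night minus day value, with a median of -0.42 against -0.01 (log2) over all genes tested, and 2 of the 15, Myh7 and Atp2a2, were called. The remaining 13 did not pass, among them Mybpc1 at -0.16 ± 0.07 and Fhl1 at -0.12 ± 0.12, the most abundant by CPM. The 4 uncalled members with the largest values, chosen after their values were seen, were Myl2, the regulatory light chain of slow myosin, at -1.98 ± 0.56 (adjusted p = 0.171), the troponin subunits Tnnt1 at -1.23 ± 0.28 (adjusted p = 0.0896) and Tnnc1 at -1.05 ± 0.36 (adjusted p = 0.236), and Tnni1 at -0.96 ± 0.32 (adjusted p = 0.230). The median of the list was -0.76 in WT and -0.28 in FoxP1SkmKO mice, with 13 of 15 negative in each, and it ran from -0.77 to -0.30 over all alternatives, with at most 2 of the 15 positive. Of the 13 libraries over 1 FPKM in Myh7, 11 were also among the 13 highest for Tnnt1, 11 for Tnnc1, 10 for Tnni1, 10 for Myl2 and 10 for Atp2a2. The overlap was smaller for Myl3, a slow light chain, with 5, and for the faster myosin heavy chains, with 6 for Myh2, 4 for Myh1 and 3 for Myh4. It was also smaller for Lypd6, with 7, and for Car3, described below, with 5. Fast-fiber genes stood near 0. None of the 15 was called, their median was 0.00, and Myh4, the fastest myosin heavy chain and the main one here, stood at -0.05 ± 0.06. How far fiber makeup or the part of the muscle taken differed between mice was not tested.

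All 15 slow-fiber genes had one sign, and 3 of them were chosen for display because their start regions held an MCAT element. For these, 300 bases from 250 before to 50 after the start are given for Myh7, Tnnc1 and Myl3, from the RefSeq promoter table of build GRCm38.p6, whose coordinates differ from those of the mm39 gene models above. Capitals mark CATTCC or its reverse complement, the letters of the MCAT element bound by TEAD factors, and a second Myh7 window, without a match, is not shown. The windows are chr14:54994577-54994876 on the minus strand, chr14:31208062-31208361 on the plus strand and chr9:110763428-110763727 on the plus strand.
Myh7: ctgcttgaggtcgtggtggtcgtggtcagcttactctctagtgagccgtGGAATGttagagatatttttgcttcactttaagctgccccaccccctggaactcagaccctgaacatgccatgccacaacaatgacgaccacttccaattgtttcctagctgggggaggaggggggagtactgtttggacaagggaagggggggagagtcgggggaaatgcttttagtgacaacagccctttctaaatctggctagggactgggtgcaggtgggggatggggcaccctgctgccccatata
Tnnc1: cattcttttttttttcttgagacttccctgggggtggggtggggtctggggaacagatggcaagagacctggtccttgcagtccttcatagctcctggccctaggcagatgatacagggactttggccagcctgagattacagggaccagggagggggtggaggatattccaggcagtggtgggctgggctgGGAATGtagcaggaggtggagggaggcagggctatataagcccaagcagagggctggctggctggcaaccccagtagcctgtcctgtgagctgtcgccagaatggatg
Myl3: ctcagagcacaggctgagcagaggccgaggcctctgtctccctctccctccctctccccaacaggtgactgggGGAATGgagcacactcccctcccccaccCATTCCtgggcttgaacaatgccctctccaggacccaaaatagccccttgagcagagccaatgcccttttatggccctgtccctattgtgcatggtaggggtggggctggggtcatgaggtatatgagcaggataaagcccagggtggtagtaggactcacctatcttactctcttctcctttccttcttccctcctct
Windows were found for 14 of the 15 slow-fiber genes and for 6 of the 10 called genes, and the windows listed under the symbol Aldoa were not used, since 2 gene models carry it. CATTCC on either strand was present in 3 of the 20 windows of slow-fiber genes (15%), close to the 14.7% of all 32851 windows. The E-box CACGTG was present in 1 of the 20 (5%, in Myh7b), against 7.15% of all windows. In all, 8 motifs were searched. Among the 6 called genes with a window, Fhip1a held TTCNNNGAA, the letters of a STAT element (8.30% of all windows), and the nuclear receptor half-site AGGTCA (16.3%). Rpl10a held TTGCNNAA, the letters of a C/EBP element (10.8%), Lypd6 held the NFAT core GGAAAA (23.4%), and Myh7 held CATTCC. None of the 6 held CACGTG or the D-box TTATGNAA (3.38% of all windows).

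Of the pooled calls, the one kept in the most alternatives (60 of 63) concerned a gene model at the Aldoa locus. Aldoa encodes aldolase A, the glycolytic aldolase of muscle, and the files list it under 2 identifiers. The main one (ENSMUSG00000030695, chromosome 7, 126394406 to 126399923, minus strand) had 5220 FPKM on average and a night minus day tumor effect of 0.01 ± 0.04 (adjusted p = 0.933). The other (ENSMUSG00000114515, chromosome 7, 126399962 to 126408280, minus strand), which lies just upstream on the same strand and has an exonic length of 799 bases, averaged 111 FPKM. Its level by day ran from 88.2 through 101 to 122 FPKM in control mice and from 95.8 through 122 to 152 in KPC mice, and by night from 97.4 through 117 to 132 in control mice and from 85.9 through 105 to 136 in KPC mice. The KPC mice stood above the controls by day, with 6 of 12 above the highest control, and somewhat below them by night. The tumor effect on this upstream Aldoa model was 0.30 ± 0.05 by day (adjusted p = 0.000710) and -0.11 ± 0.05 by night (adjusted p = 0.240), a difference of -0.41 ± 0.06 (95% interval -0.54 to -0.28, adjusted p = 0.00388). The 3 daytime values lay within 0.26 and 0.33, and those of the night between -0.19 and 0.01. The upstream model took a median of 0.538% of the counts of both models in control mice and 0.639% in KPC mice by day, and 0.630% and 0.558% by night. Reads of transcripts that reach from the upstream model into the main gene could be counted under either or under neither, so the value bears on a small share of the reads of the locus and not on the level of aldolase A.

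The 3 other day-weighted genes had smaller levels or effects. Lypd6 (ENSMUSG00000050447, chromosome 2, 49956441 to 50083581, plus strand), a membrane-anchored protein of the Ly6 family, had medians of 0.385 FPKM in control and 0.254 in KPC mice by night, and of 0.277 and 0.413 by day. The order of its groups turned between the periods, with a tumor effect of -0.64 ± 0.18 by night and 0.61 ± 0.18 by day and a difference of -1.25 ± 0.26 (adjusted p = 0.0456), at the low end of the measurable range. Zfp655, a zinc finger protein (ENSMUSG00000007812, chromosome 5, 145168525 to 145184112, plus strand), had medians of 2.08 and 1.74 FPKM by night and 1.88 and 2.24 by day in control and KPC mice, and a difference of -0.40 ± 0.08 (adjusted p = 0.0456). Fhip1a (ENSMUSG00000051000, chromosome 3, 85567368 to 85724598, minus strand), which encodes a partner of the FHF complex that links vesicles to dynein, had medians of 13.1 and 12.0 FPKM by night and 12.0 and 12.6 by day, and a difference of -0.26 ± 0.05 (adjusted p = 0.0456). For Fhip1a the value was largest at CT26, 0.32 ± 0.07, and 0.09 ± 0.07 or less at the other 5 times.

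**Figure D3:**
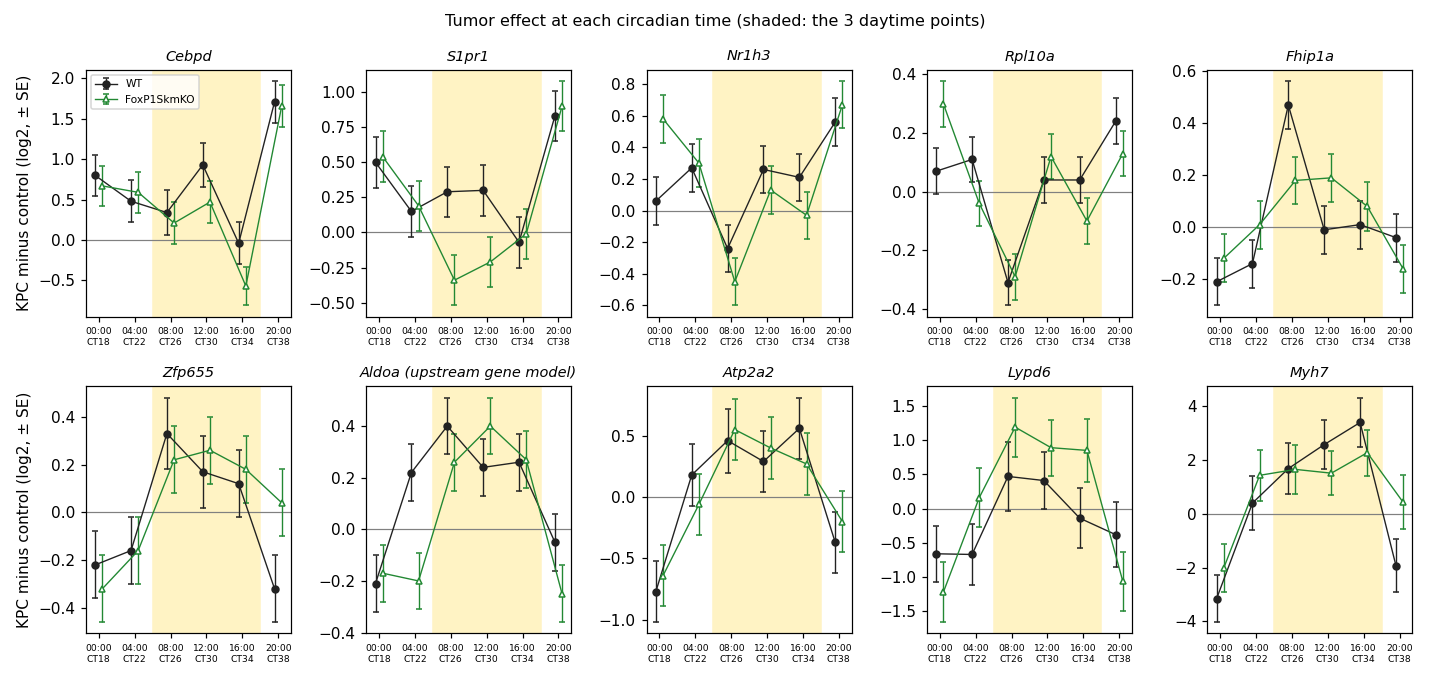
KPC minus control (log2 ± SE, vertical axis) of the 10 called genes at each circadian time in WT (circles) and FoxP1SkmKO mice (triangles), each point from 2 KPC and 2 control mice, with the 3 daytime points shaded. For Myh7, Atp2a2, Zfp655 and the upstream Aldoa model all 6 night values lay below all 6 day values, and for Cebpd and S1pr1 the highest values stood at CT38.

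The separation of night and day values by group was complete for 4 of the 10 genes. For Myh7, Atp2a2, Zfp655 and the upstream Aldoa model, each of the 6 night values (3 times in 2 genotypes) was lower than each of the 6 day values. Over all 15637 genes tested, 28 had all 6 night values below the day values and 13 had all 6 above. Since the contrast is built from the same 12 values, this describes the calls and adds no support to them.

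In FoxP1SkmKO mice alone, 17 genes (0.109%) were called, and in WT mice alone 0 genes (0%) were called (edgeR), with 1314 at an unadjusted p under 0.05 and 47 genes called by DESeq2. The gene with the lowest adjusted p in FoxP1SkmKO mice was Car3 (ENSMUSG00000027559, chromosome 3, 14928572 to 14937583, plus strand), a carbonic anhydrase abundant in slow fibers and fat. In FoxP1SkmKO control mice Car3 ran from 1200 through 1330 to 1600 FPKM by night and from 793 through 865 to 1030 by day. In FoxP1SkmKO KPC mice it ran from 837 through 963 to 1210 by night and from 1020 through 1140 to 1810 by day. The groups therefore hardly overlapped by night, where control mice were higher, and by day, where KPC mice were higher. In WT mice the 4 medians lay between 908 and 987 FPKM. The night minus day tumor effect on Car3 was -0.98 ± 0.15 in FoxP1SkmKO mice (adjusted p = 0.00520) and 0.02 ± 0.15 in WT mice (95% interval -0.29 to 0.33). Kcnf1 (ENSMUSG00000051726, chromosome 12, 17222101 to 17226889, minus strand), a modifying subunit of voltage-gated potassium channels, went the other way. Its median in FoxP1SkmKO mice was 1.25 FPKM in control and 1.91 in KPC mice by night, and 1.17 and 0.614 by day, and its value was 1.83 ± 0.35 (adjusted p = 0.0325). Dbt, a subunit of the branched-chain keto acid dehydrogenase, had 0.50 ± 0.11 (adjusted p = 0.0491), and Ift122, a protein of ciliary transport, had -1.07 ± 0.23 (adjusted p = 0.0491). Ift122 had 2.96 FPKM in FoxP1SkmKO control CT38 replicate 2 and 1.31 in replicate 1. In FoxP1SkmKO KPC mice at CT30, replicate 2 had 2.6 and replicate 1 had 1.55. These replicate 2 libraries had 1600 and 1810 FPKM of Car3, against 1230 and 1080 in replicate 1. They also had the most genes with a count of all 48 libraries (20436 and 20261). Without that control library Ift122 was -0.84, and without that KPC library Car3 was -0.84. What set them apart was not tested. S1pr1 at 0.73 ± 0.14, Nr1h3 at 0.64 ± 0.12, Lypd6 at -1.69 ± 0.35 and the upstream Aldoa model at -0.52 ± 0.09 were called in FoxP1SkmKO mice as well, and 3 further genes among the largest were long noncoding RNAs known only by predicted names.

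The genotypes were not shown to differ. The test of the difference between WT and FoxP1SkmKO mice called 0 genes (0%) with edgeR, with 1452 at an unadjusted p under 0.05, and 8 genes with DESeq2, which adjusted over 4778 genes. For Car3 the WT minus FoxP1SkmKO difference was 0.99 ± 0.22 (95% interval 0.55 to 1.43, adjusted p = 0.159), for Ift122 it was 1.24 ± 0.33 (adjusted p = 0.279), and for Kcnf1 -1.52 ± 0.48 (adjusted p = 0.346). WT and FoxP1SkmKO libraries are separate mice, so that their night minus day values can be set against each other. Of the 17 genes called in FoxP1SkmKO mice, 14 had the same sign in WT mice, and over all 15637 genes 51.2% did. The correlation of these values across genes, which are not independent replicates, was 0.00159 (Pearson).

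**Figure D4:**
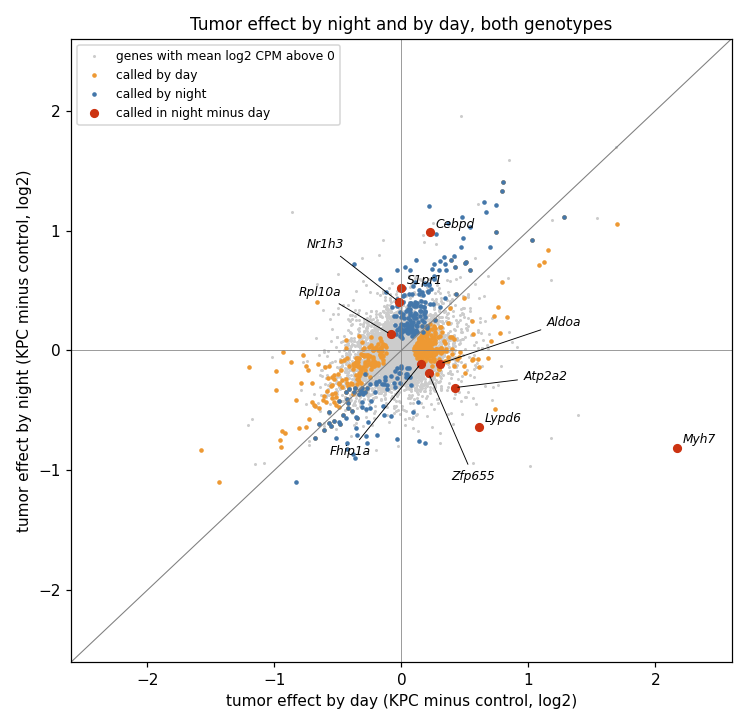
Tumor effect by night (vertical axis) against that by day (horizontal axis), both in log2, for genes with a mean log2 CPM above 0, with genes called by night in blue, genes called by day in orange, the 10 genes called in the difference in red and a line where both effects are equal. Cebpd, S1pr1 and Nr1h3 lay near the vertical axis well above 0, and Myh7 lay far to the right and below the horizontal axis.

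Each period was also examined on its own. By night 252 genes (1.61%) were called, 166 of them higher (1.06%) and 86 lower (0.550%) in KPC mice, and by day 485 (3.10%), 289 higher (1.85%) and 196 lower (1.25%). Night and day libraries come from different mice, and 45 genes were called in both with the same direction, which is 17.9% of those called by night and 9.28% of those called by day. None was called in both with opposite directions. Of the genes called by night, 84.9% had the same sign by day, and of those called by day, 74.0% had the same sign by night, against 56.0% over all genes. Of the 10 genes called in the difference, which is built from the same libraries, 4 were called by night (Cebpd, S1pr1, Nr1h3 and Rpl10a), 5 by day (the upstream Aldoa model, Fhip1a, Atp2a2, Zfp655 and Myh7) and Lypd6 in neither. Both counts leaned on single circadian times. The number called by night was 11 without CT38 and 43 without CT18, and the number called by day was 79 without CT26.

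More genes passed the test for the change between night and day than for its alteration by the tumor. The alteration is the change in KPC mice minus that in control mice, and its standard error is wider (0.15 for Cebpd). The counts therefore do not compare the sizes of the effects. Between night and day, 1381 genes (8.83%) differed in control mice and 1124 (7.19%) in KPC mice, which are separate animals. Of these, 436 were shared with the same direction, 31.6% of the control genes and 38.8% of the KPC genes, and 4 were shared with opposite directions. For Cebpd the night minus day value was -0.17 ± 0.11 in control mice (adjusted p = 0.360) and 0.59 ± 0.10 in KPC mice (adjusted p = 0.000245), and for Myh7 it was 0.87 ± 0.40 (adjusted p = 0.172) and -2.11 ± 0.36 (adjusted p = 0.000194).

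Clock genes differed between night and day in control and in KPC mice. Between the periods, 5 of the 19 genes of a clock list were higher and 12 lower by night in control mice, and 4 were higher and 13 lower in KPC mice. Over all genes, 4.5% were called higher and 4.33% lower by night in control mice, and 3.43% and 3.76% in KPC mice. Of the same 19 genes, 0 were called in the night minus day tumor effect by edgeR, 4 had an unadjusted p under 0.05, and their median was -0.04 (log2). Dbp, an output of the clock that binds D-box elements, was lower by night by 1.71 in control and by 2.00 in KPC mice on the log2 scale, and its night minus day tumor effect was -0.29 ± 0.11 (adjusted p = 0.291). Nr1d1 (REV-ERB alpha) was lower by night by 1.61 and 1.39, with a value of 0.22 ± 0.11 (adjusted p = 0.483), and Arntl was higher by night by 0.83 and 0.99, with 0.16 ± 0.12 (adjusted p = 0.677). Tef, another D-box factor, had the lowest adjusted p of the list, 0.196, with -0.13 ± 0.04. The repressors Per1, Per2 and Per3 had -0.06 ± 0.19, -0.19 ± 0.13 and -0.16 ± 0.07, and Cry1 and Cry2 had -0.01 ± 0.08 and -0.10 ± 0.06. Clock, Nr1d2, Rora, Nfil3, Hlf, Bhlhe40, Bhlhe41, Ciart and Npas2 lay between -0.20 and 0.18, and the widest standard errors, 0.28 for Ciart and 0.44 for Npas2, allow differences that this design could not detect.

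Genes of inflammation and of the glucocorticoid response were called higher in KPC mice in each period. Of 26 tested genes of a JAK-STAT3 and acute-phase list, 8 were higher and 0 lower in KPC mice by night, and 5 were higher and 1 lower by day, while 1, Cebpd, was called in the difference. By night 1.06% and by day 1.85% of all genes tested were called higher. The list had a median night minus day value of 0.12, which was 0.03 with 14 of 26 positive without FoxP1SkmKO KPC CT18 replicate 2 and 0.31 without the CT22 libraries. The CT18 library left out had 11.9 FPKM of Saa1, 11.7 of Orm1 and 38.7 of Hp, acute-phase genes that stood at 0.03, 0 and 1.84 in the other mouse of its group (the 3 genes were chosen after their values were seen). Socs3, a feedback inhibitor of JAK-STAT signaling chosen after its values were seen, ran from 0.596 through 0.920 to 1.27 FPKM in control and from 0.847 through 1.71 to 2.92 in KPC mice by night, with 1.03 and 1.37 as medians by day, and its difference was 0.70 ± 0.27 (adjusted p = 0.291). Il6st, Jak1 and Stat3, the signal transducers with the highest CPM of the list, had 0.08 ± 0.06, -0.08 ± 0.05 and -0.01 ± 0.07, none called. Of 28 tested glucocorticoid-responsive genes, which also include Cebpd, 6 were higher by night and 2 by day, 22 had a positive night minus day value, and the median was 0.14, against -0.01 over all genes. Pdk4, which restrains pyruvate oxidation, had 0.29 ± 0.27 (adjusted p = 0.734), and Ddit4, an inhibitor of mTORC1 chosen after its values were seen, had 0.64 ± 0.25 (adjusted p = 0.308). The 5 neutrophil markers tested of 12 had a median of 0.55, with 0 called. Their 12 genes summed to 1.11 to 7.10 FPKM in KPC mice by night, 0.346 to 23.8 in KPC mice by day and 0.369 to 3.20 in control mice, and the part of these cells in the lists was not tested.

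Ribosomal protein genes had small night minus day values, most of them positive. Of 79 cytosolic ribosomal protein genes, 71 had a positive night minus day value with a median of 0.13, and 1, Rpl10a, was called. By night 69 of the 79 had a positive tumor effect, with 3 called (1.06% of all genes were called higher), and by day 67 had a negative one, with 2 called (1.25% of all genes were called lower). The values at the single times had medians of 0.10 at CT38, 0.13 at CT18, -0.03 at CT22, -0.24 at CT26, 0.04 at CT30 and 0.03 at CT34. Without CT26 the median of the list fell to 0.04, with 57 of 79 positive. Rpl10a averaged 52.8 FPKM in the 4 control mice at CT26, against 43 to 47.8 at the other times. In KPC mice it averaged 43.1 at CT26, against 45.5 to 52.1. Genes of oxidative phosphorylation had a median of 0.06, with 65 of 79 positive and 0 called, and this turned to -0.03 with 23 positive when CT26 was left out. Mitochondrial ribosomal proteins, with 62 of 77 positive and a median of 0.05, had a median of -0.00 without CT26. The CT26 values thus carried the tilt in both mitochondrial lists, and at that time the median over oxidative phosphorylation genes was -0.35 in WT and -0.16 in FoxP1SkmKO mice. These values are KPC minus control, and how far high control levels at CT26 entered them was not tested.

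**Figure D5:**
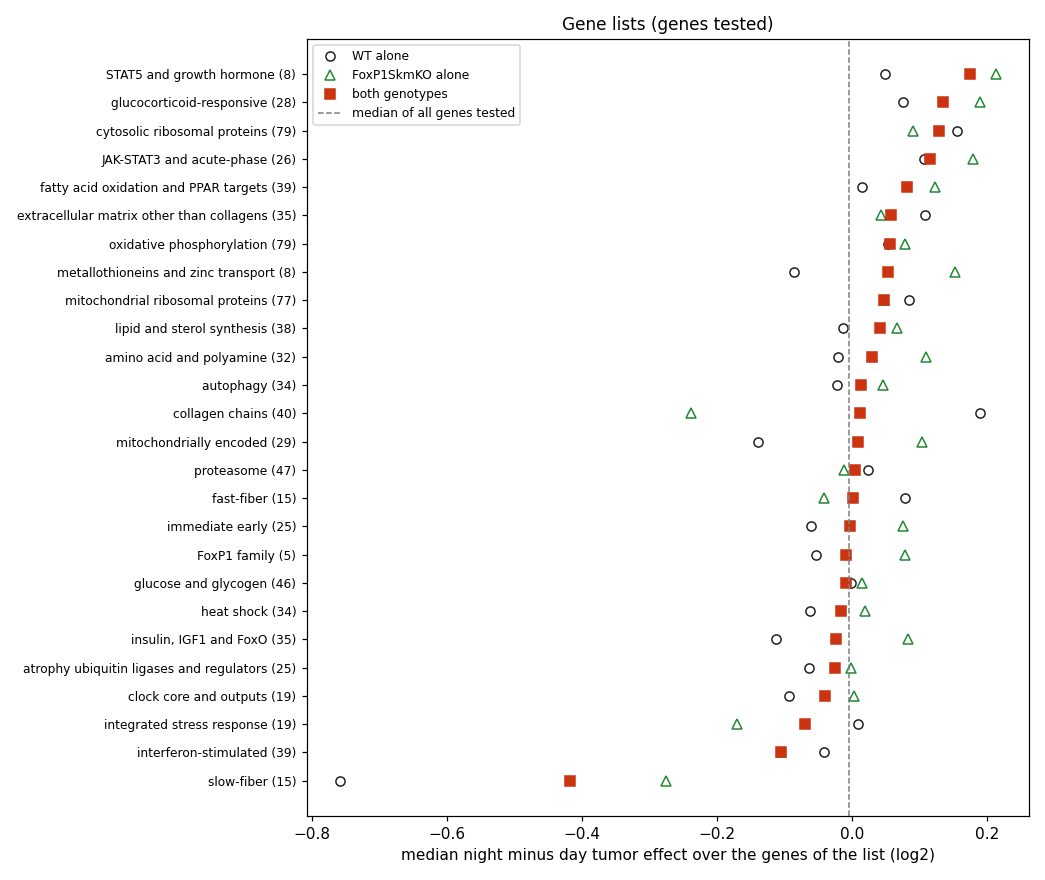
Median night minus day tumor effect (log2, horizontal axis) over the tested genes of each list, with the number of genes in parentheses, for both genotypes (squares), WT alone (circles) and FoxP1SkmKO alone (triangles), and a dashed line at the median of all genes tested. With both genotypes pooled, the slow-fiber list stood farthest to the left at -0.42, and the other plotted lists lay between -0.10 and 0.18. For single genotypes the other lists lay between -0.24 (collagen chains, FoxP1SkmKO) and 0.21 (STAT5 and growth hormone, FoxP1SkmKO).

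The other lists held no called gene apart from the upstream Aldoa model, which a list of 46 glucose and glycogen genes includes (median -0.01). Medians with both genotypes pooled were -0.02 for 25 atrophy ubiquitin ligases and regulators, 0.01 for 34 autophagy genes and 0.00 for 47 proteasome genes, the systems that degrade muscle protein in cachexia. They were -0.10 for 39 interferon-stimulated genes (0.06 without FoxP1SkmKO control CT18 replicate 2), -0.00 for 25 immediate early genes, -0.02 for 34 heat shock genes, -0.07 for 19 genes of the integrated stress response, 0.18 for 8 genes of STAT5 and growth hormone and 0.05 for 8 of metallothioneins and zinc transport. Metabolic lists had 0.08 for 39 genes of fatty acid oxidation and PPAR targets, 0.04 for 38 of lipid and sterol synthesis, -0.02 for 35 of insulin, IGF1 and FoxO and 0.03 for 32 of amino acids and polyamines. Mitochondrially encoded genes (29) had 0.01, collagen chains (40) 0.01, 35 other extracellular matrix genes 0.06 and the FoxP1 family (5) -0.01. Of the collagens, 6 of 40 were called lower in KPC mice by night and 14 by day, against 0.550% and 1.25% of all genes. The 10 fibroblast markers were all negative in both periods, with medians of -0.40 by night and -0.54 by day and with 2 and 5 called lower. They summed to 75.7 to 248 FPKM in KPC mice by night and 57.9 to 124 by day, against 127 to 216 and 78.7 to 223 in control mice, and their part in the collagen counts was not tested.

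Markers of other cell types gave no called gene in the pooled difference. Medians were 0.54 for 8 adipocyte markers, 0.34 for 5 erythroid, 0.06 for 13 macrophage, 0.10 for 10 fibroblast, 0.25 for 8 Schwann cell, 0.07 for 6 satellite cell and -0.02 for 10 muscle fiber markers, and -0.58 for 2 lymphocyte and -0.99 for 6 epithelial markers. The adipocyte median was 0.06 without FoxP1SkmKO KPC CT22 replicate 1 and 1.03 without WT KPC CT26 replicate 2. Several pooled medians joined unlike values of the genotypes. Macrophage markers had 0.57 in WT mice, with 11 of 13 positive, and -0.39 in FoxP1SkmKO mice, with 12 of 13 negative. The test of the WT minus FoxP1SkmKO difference called none of them, with a median of 1.08 and 7 of 13 at an unadjusted p under 0.05, against 9.29% of all genes. Fibroblast markers had 0.46 in WT mice (10 of 10 positive) and -0.28 in FoxP1SkmKO mice (9 of 10 negative), with 2 of 10 at an unadjusted p under 0.05 for the difference and none called. Schwann cell markers had -0.07 in WT and 0.59 in FoxP1SkmKO mice, again with none called for the difference and 2 of 8 at an unadjusted p under 0.05. The adipocyte markers summed to 20.9 to 50.9 FPKM in KPC mice by night and 21.6 to 40.5 by day, against 22.5 to 44.1 and 26.7 to 52.4 in control mice, and Car3 is also expressed in adipocytes. Their part in the Car3 result was not tested. Epithelial markers, a check for tumor cells in the muscle, summed to at most 2.96 FPKM in any library, and Cldn4 was at 0 in all 48. Lymphocyte markers summed to at most 2.83 FPKM.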

How the data were processed

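Total RNA of the tibialis anterior was sequenced, and the authors deposited 12 tables of gene counts, each for the 4 libraries of a genotype and circadian time, and a table of FPKM for all 48 libraries. The study's methods name STAR and HTSeq on mm39, whereas the submitters' processing notes list HISAT2 2.0.5 and DESeq2 1.20.0, and which made the tables was not settled. Whether the kit kept strand is likewise not settled, so overlapping and antisense genes are uncertain. Genes with at most 1 read over a table's 4 libraries (2066 to 2760 with 1 read) were absent from it and set to 0. The authors' fold changes and p-values were not used.

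Counts were filtered with filterByExpr, scaled by TMM and fitted with edgeR 4.0.16 (R 4.3.3), with 1 coefficient for each of 24 groups of genotype, condition and time, 24 residual degrees of freedom and contrasts between averages of times. The quasi-likelihood test was two-sided, with Benjamini-Hochberg adjustment over 15637 genes and a threshold of 0.05. FPKM served for levels, and intervals are 95% on 32.5 degrees of freedom. Total counts of 14480446 to 20787135 limit precision for genes of low level such as Lypd6. The members and lists were chosen with earlier results of these data known. Named genes were all those called in the pooled difference whose mean log2 CPM exceeded 0 and whose sign was shared by the genotypes, for a genotype alone the 5 largest in each direction above the same CPM, the clock list (1 member is not reported here) and Foxp1, and, from the other lists, called members and at most 4 uncalled members of highest CPM. List members marked above as chosen after their values were seen were named outside this rule. Alternatives were DESeq2 1.42.0 and limma 3.58.1 on log2 FPKM, other scaling, filters and times, a replicate block and the removal of each library. The scripts were tested on simulated data. Replicate numbers did not pair the mice (correlations of same-numbered deviations of -0.32 to 0.24 over 276 pairs of groups), and no 2 libraries were identical.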

Additional observations from a re-analysis of the deposited data

Results flagged for a closer look

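The 10 genes called in the night minus day difference are those for which the tumor effect, averaged over the sampled times of each period, differed by the test of the difference itself (edgeR's quasi-likelihood test, Benjamini-Hochberg adjusted p under 0.05). Variation among the times of a period does not enter that test. Their log2 values were 0.76 for Cebpd, 0.52 for S1pr1, 0.43 for Nr1h3, 0.22 for Rpl10a, -2.98 for Myh7, -1.25 for Lypd6, -0.73 for Atp2a2, -0.41 for the upstream Aldoa model, -0.40 for Zfp655 and -0.26 for Fhip1a.

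Single libraries of these genes that stood far from the other 5 of their group were sought in 80 groups of 6, where chance marks about 1 in 20, and 4 were found. S1pr1 had 12.2 FPKM in a WT control mouse at CT22, against 9.62 for the next highest by night. Myh7 had 1.29 FPKM in a FoxP1SkmKO KPC mouse at CT22, against 0.497. Atp2a2 had 4.36 FPKM in a FoxP1SkmKO control mouse at CT26, where the next lowest by day had 5.5. The upstream Aldoa model had 116 FPKM in a WT control mouse at CT22, against 102.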

How the results depend on the processing

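The 10 genes called in the pooled difference kept their direction under every alternative in which they were tested (63, or 62 for Myh7 and Lypd6), whereas the number of calls depended strongly on the processing. Values below are numbers of genes called by edgeR unless another tool is named, and those in the report were 10 for the pooled difference, 0 for WT, 17 for FoxP1SkmKO, 0 for the genotype difference, 252 by night, 485 by day, 1381 and 1124 for night against day in control and KPC mice, and 5 list members called in the pooled difference (the last recounted as an addition chosen after seeing the data). DESeq2 called 64, 47, 62 and 8 genes in the pooled, WT, FoxP1SkmKO and genotype differences. With 8 coefficients (genotype, condition and period, without circadian time) the counts were 1 pooled, 1 in WT, 3 in FoxP1SkmKO, 79 by night, 21 by day, 422 and 424 for night against day in control and KPC mice, and 1 list member. In the fit with 8 coefficients, differences among the times of a period are part of the spread. With the gene length trend removed, 2 genes and 2 list members were called. Limma on log2(FPKM + 0.1) gave 1 pooled, 9 in FoxP1SkmKO, 284 by day and 1 list member, and on log2(FPKM + 1) it gave 1 pooled, 11 in FoxP1SkmKO, 1 for the genotype difference, 252 by day and 1 list member. Without a filter on low counts the calls were 390 pooled, 176 in WT, 534 in FoxP1SkmKO, 302 for the genotype difference, 742 by night, 966 by day and 80 list members. In that fit the spread of single genes was replaced by the trend, with a standard error for Myh7 of 0.125 against 0.535. The cause of the other shifts was not tested.

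Leaving out CT18 gave 0 pooled, 3 in FoxP1SkmKO, 1 for the genotype difference, 43 by night, 408 and 665 for night against day in control and KPC mice, and 0 list members. Leaving out CT38 gave 0 pooled, 1 in FoxP1SkmKO, 11 by night and 0 list members. Leaving out CT22 gave 22 pooled, 2 in WT, 50 in FoxP1SkmKO, 432 by night and 9 list members. Leaving out CT26 gave 2 pooled, 4 in FoxP1SkmKO, 79 by day, 1713 for night against day in KPC mice and 2 list members. Leaving out CT30 gave 22 pooled, 57 in WT, 0 in FoxP1SkmKO (edgeR), 230 by day and 462 for night against day in KPC mice. Leaving out CT34 gave 38 pooled, 61 in WT, 100 in FoxP1SkmKO and 4 for the genotype difference.

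With each library left out in turn, which assumes that the lone mouse varied like the other groups, calls ran from 1 to 37 pooled (1 without WT control CT22 replicate 2 and 37 without FoxP1SkmKO KPC CT30 replicate 1), 0 to 47 in WT (47 without WT control CT26 replicate 2), 1 to 262 in FoxP1SkmKO (1 without its control CT26 replicate 1 and 262 without its KPC CT30 replicate 1), 0 to 6 for the genotype difference, 128 to 379 by night, 189 to 622 by day, 972 to 1532 and 796 to 1117 for night against day in control and KPC mice, and 1 to 7 list members. Of the 48 refits, 36 gave a lower pooled count, 5 a higher and 7 within 1.5 times. The upstream Aldoa model was called in 60 of 63 alternatives and Car3 in FoxP1SkmKO mice in 62 of 63. With the replicate block the counts were 3 pooled, 2 in WT and 3 list members, and same-numbered mice did not deviate together (median correlation -0.0037). With single libraries left out, the medians of list values near 0 changed sign, among them immediate early genes (23 of 48 refits), the FoxP1 family (22), fast-fiber genes (18), proteasome and glucose genes (15 each) and collagens (13), whereas the slow-fiber median stayed negative in all 48. Depth limits genes of low level such as Lypd6.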
